A study of Danio rerio with 14 samples.

Results

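The titin genes ttna and ttnb, the desmin gene desma and the muscle taxilin gene txlnbb were followed in the abdomen of zebrafish (Danio rerio) larvae with a knockdown of thyroid hormone deiodinases. All probes that could be named as one of the 4 genes were taken from the deposited table of probe contrasts. A probe was named by the gene symbol that the study's transcript list pairs with its probe ID or its accession. Where that list gave none, the symbol of a RefSeq accession was used, which named 104 probes. This gave 8 probes of 4 genes, among 13270 probes in all, of which 888 probes of 740 genes had a symbol. Of the member probes 5 were paired with their symbol by probe ID and 3 by accession. The genes were chosen by their measured values in these same contrasts, so their changes are given as a description and no test is drawn from them.

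The larvae were wild type WIK zebrafish at 72 hpf, and every group had been injected with a morpholino, the controls included. SCMO larvae received a standard control morpholino, D1D2MO larvae received morpholinos against deiodinases type 1 and type 2 together, and D3MO larvae received the morpholino against deiodinase type 3 (dio3b). A morpholino blocks a transcript for a limited time in all cells it reaches, so these were transient knockdowns and not mutant lines. Each group had 4 biological replicates, each a pool of abdomens, and the sample labels give 20 larvae for a pool while the methods give another number. RNA was hybridised on 14 two-colour arrays, 6 with D1D2MO and SCMO, 4 with D3MO and SCMO and 4 with D3MO and D1D2MO, with SCMO in Cy5 in 5 of 10 channels, D1D2MO in 5 of 10 and D3MO in 4 of 8. The deposited tables hold contrasts over these arrays, and values of single arrays were not analysed here, so no level per replicate or group is given.

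Titin is the giant elastic protein of striated muscle, which spans from the Z-disc to the M-band and acts as a spring and as a template for the sarcomere. Desmin is the intermediate filament of muscle cells, which ties neighbouring myofibrils together at the Z-discs and to the cell membrane. Taxilins are coiled-coil proteins that bind syntaxins of the vesicle fusion machinery, and in mammals the beta form is found mainly in skeletal and heart muscle. Deiodinases type 1 and type 2 convert thyroxine to the active hormone T3, while type 3 inactivates both, and thyroid hormone is a known regulator of muscle fibre genes.

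As dissected, the abdomen held the yolk, swim bladder, liver and gut, and the methods name no trunk muscle in it. Probes of liver, gut, fast muscle, heart, skin and blood genes were all among those measured. A change in the number of cells of a type and a change in RNA per cell cannot be told apart in such pools, in either direction.

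For each probe the log2 fold change (log2FC) and its standard error (SE) are given. The SE was recovered from the deposited log2FC and p-value, and the median SE over all probes was 0.083 for D1D2MO against SCMO and 0.092 for D3MO against SCMO. A probe was called when its p-value, adjusted by the Benjamini-Hochberg method over all probes of the contrast, was under 0.05 and its log2FC was over 0.585 in size, which is a fold of 1.5. Only called probes are described as risen or fallen. Knockdowns were each set against the same SCMO group, though hybridised with it on different arrays. The contrast of D3MO with D1D2MO equals the difference of the other contrasts, so the 3 values of a probe are not independent.

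In D3MO txlnbb rose 2.67-fold and 2 of 3 probes each of ttnb and desma rose, with a mean of 1.57-fold over the probes of either gene, while none of these genes had a called probe in D1D2MO. In D1D2MO only ttna rose, 1.62-fold. Of the 8 probes, 1 rose in D1D2MO, 5 rose in D3MO and 4 were higher in D3MO than in D1D2MO, and 0 fell in any of these contrasts. At an unadjusted p under 0.05 the limma values of the members gave 2, 8 and 7 probes in the same order. Of all 13270 probes 2730, 1583 and 3104 had such a p. Over all 13270 probes 0.761% rose and 0.098% fell in D1D2MO, 0.821% rose and 0.264% fell in D3MO, and 0.889% were higher and 1.27% lower in D3MO than in D1D2MO. Since the members were selected on these contrasts, nothing is read from the distance to these shares. The median log2FC of the 8 probes was 0.012 for D1D2MO and 0.65 for D3MO against the controls, and 0.64 between the knockdowns, where all probes had a median within 0.011 of 0.

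**Figure D1:**
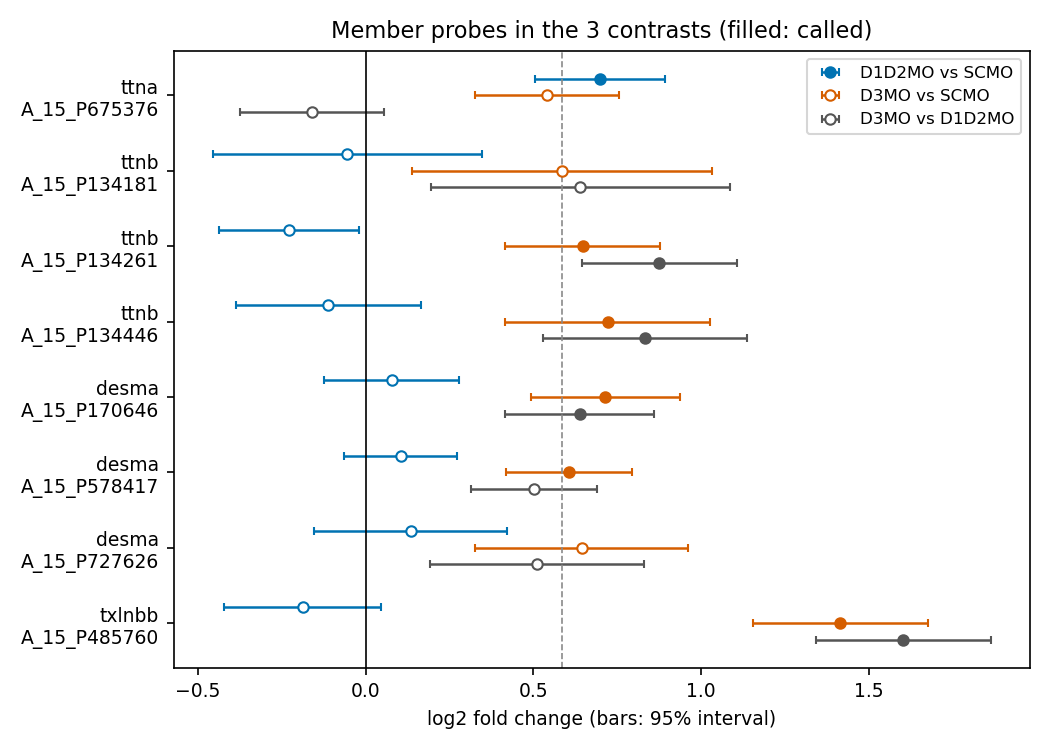
The log2FC of each member probe (points) with its 95% interval (bars) in the 3 contrasts, 1 row per probe, with filled points for called probes and a dashed line at the fold threshold of 0.585. The probe of ttna lies at 0.70 in D1D2MO against SCMO, where the probes of ttnb lie below 0, and the probe of txlnbb lies at 1.42 and 1.60 in the contrasts with D3MO.

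Titin was measured for both genes, which encode the same kind of giant protein, and a probe was called in D1D2MO for ttna alone and in D3MO for ttnb alone. A test of the difference between the genes was not made. The single named probe of ttna (A_15_P675376, designed on ENSDART00000126871) rose in D1D2MO, with a log2FC of 0.70 (SE 0.082, 95% interval 0.50 to 0.89). It had the log2FC of rank 68 among all probes in that contrast, counted from the highest. In D3MO this probe was at 0.54 (SE 0.091, 95% interval 0.32 to 0.75), a 1.45-fold higher signal that passed the adjusted p but not the fold threshold. The direct contrast put it at -0.16 (SE 0.091, 95% interval -0.37 to 0.056), an interval that holds 0. A difference of ttna between the knockdowns was therefore not shown, although it was called in D1D2MO alone.

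The ttnb gene was measured by 3 probes. Its probe A_15_P134261 (accession BC090540) was at -0.23 in D1D2MO (SE 0.088, 95% interval -0.44 to -0.020), which did not pass the adjusted threshold. The same probe rose 1.57-fold in D3MO, with a log2FC of 0.65 (SE 0.098, 95% interval 0.41 to 0.88). Its signal was 1.84-fold higher in D3MO than in D1D2MO, with a log2FC of 0.88 (SE 0.098, 95% interval 0.64 to 1.11), the rank 41 value of all probes. Thus for this probe the difference between the knockdowns was larger than its difference from the controls in either of them.

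A pair of further ttnb probes were both designed on ENSDART00000002299. Probe A_15_P134446 was at -0.11 in D1D2MO (SE 0.12), rose to 0.72 in D3MO (SE 0.13, 95% interval 0.42 to 1.03) and was higher by 0.83 in the direct contrast (SE 0.13, 95% interval 0.53 to 1.14). Its call in D3MO lay just inside the threshold, with an adjusted p of 0.0484 from limma. Probe A_15_P134181 was at -0.054 in D1D2MO (SE 0.17), 0.59 in D3MO (SE 0.19, 95% interval 0.14 to 1.03) and 0.64 in the direct contrast (SE 0.19, 95% interval 0.19 to 1.09), and it was called in none of them. Its error was wide, since only 4.54% of all probes had a larger SE. All 3 ttnb probes thus gave a negative value in D1D2MO and a value between 0.59 and 0.72 in D3MO. A ttnb probe that passed no threshold could have had no symbol, so this agreement was in part fixed in advance.

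The current RefSeq annotation of zebrafish lists 2 titin genes with 1 other listed locus between them. The probes of such neighbouring and related genes may share sequence, and the specificity of each probe was not tested because no probe sequence was used here.

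**Figure D2:**
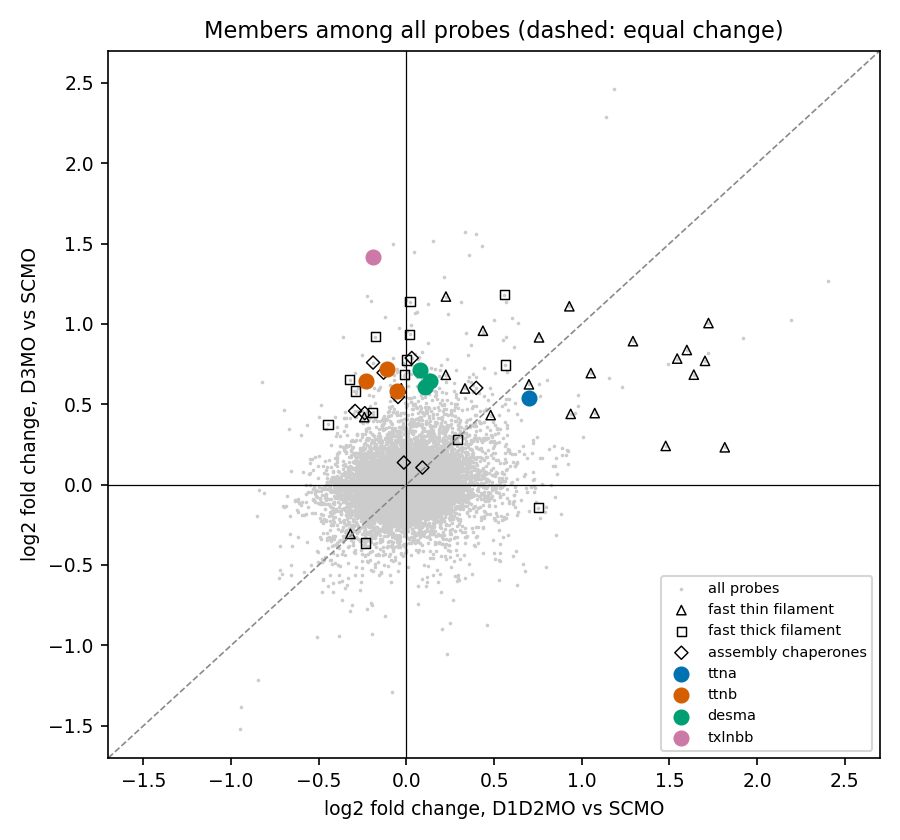
The log2FC of D3MO against SCMO (vertical axis) plotted over that of D1D2MO against SCMO (horizontal axis) for all 13270 probes (grey), the member probes (coloured) and the probes of 3 muscle gene lists (open symbols), with a dashed line of equal change. The other 7 member probes lie near 0 on the horizontal axis and above 0.58 on the vertical axis, while ttna lies close to the line of equal change, at 0.70 and 0.54.

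Desmin was measured by 3 probes designed on the same RefSeq transcript of desma. In D1D2MO all of them were close to the controls, with log2FC of 0.077, 0.10 and 0.13 (SE 0.085, 0.071 and 0.12), and every 95% interval held 0. In D3MO probe A_15_P170646 rose 1.64-fold, with a log2FC of 0.72 (SE 0.094, 95% interval 0.49 to 0.94). Probe A_15_P578417 rose 1.52-fold, with a log2FC of 0.61 (SE 0.079, 95% interval 0.42 to 0.79), just over the fold threshold. Probe A_15_P727626 was at 0.64 (SE 0.13, 95% interval 0.33 to 0.96) and missed the adjusted threshold, at an adjusted p of 0.0793 from limma. The 3 probes of desma agree within their errors in D3MO, and the one without a call is the one with the widest error. A_15_P578417 and A_15_P727626 were named by accession, which was known only for probes past a threshold. This agreement was therefore in part fixed in advance and no support is drawn from it.

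In the direct contrast all 3 desma probes had a positive log2FC, and 1 of them was called. A_15_P170646 was at 0.64 (SE 0.094, 95% interval 0.42 to 0.86) and was called. It is the dimmest of the desma probes, with a mean log2 intensity of 7.10 against 11.23 and 11.43 for the others. A_15_P578417 was at 0.50 (SE 0.079, 95% interval 0.32 to 0.69), with an adjusted p of 0.0200 from limma, and failed only the fold threshold. A_15_P727626 was at 0.51 (SE 0.13, 95% interval 0.19 to 0.83) and failed the adjusted threshold too. The mean over the probes was 0.11 for D1D2MO and 0.66 for D3MO, and 0.55 between them, which put desmin message in D3MO 1.57-fold above the controls.

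Muscle taxilin gave the largest values among the members. The single named probe of txlnbb (A_15_P485760, designed on NM_001083553) was at -0.19 in D1D2MO (SE 0.099, 95% interval -0.42 to 0.047), an interval that holds 0. In D3MO it rose 2.67-fold, with a log2FC of 1.42 (SE 0.11, 95% interval 1.16 to 1.68), the value of rank 10 among all probes. In the direct contrast it was 3.04-fold higher in D3MO than in D1D2MO, with a log2FC of 1.60 (SE 0.11, 95% interval 1.34 to 1.86). This was the highest log2FC of all 13270 probes in that contrast. A gene with 1 named probe has no check by another probe, which holds for txlnbb and for ttna. The further named probes of ttnb and desma share the selection of the members, so they are no independent check either.

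**Figure D3:**
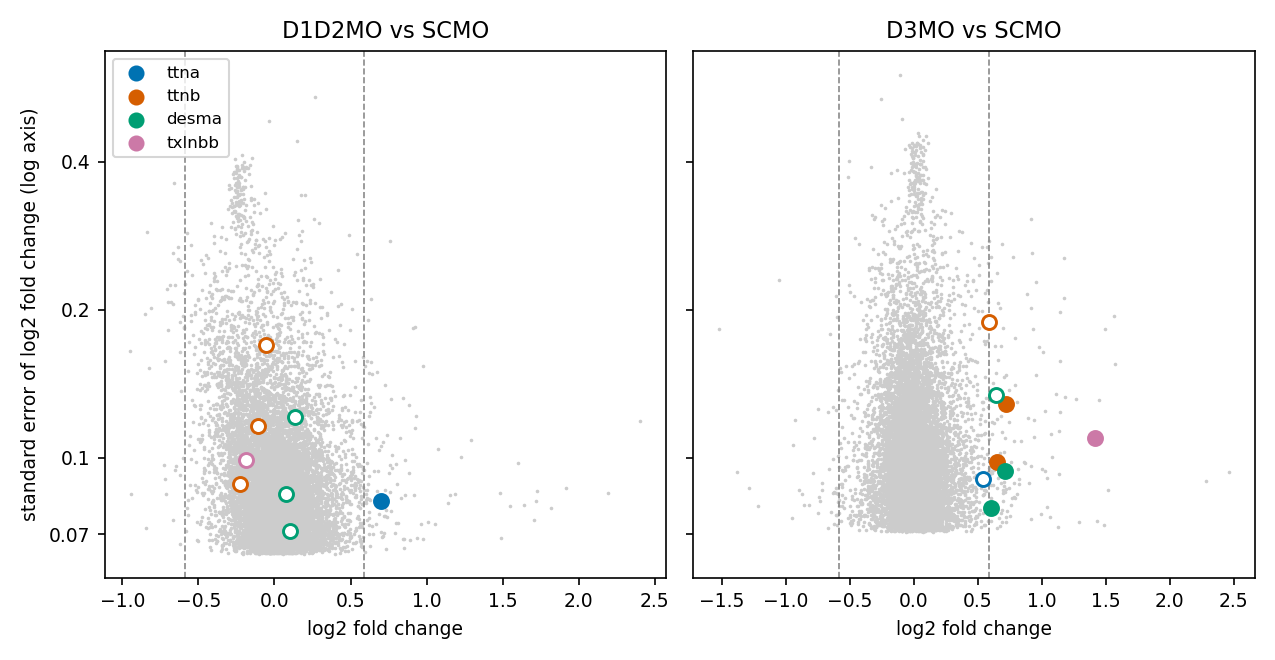
The SE of the log2FC (vertical log axis) over the log2FC (horizontal axis) for D1D2MO and D3MO against SCMO, with all probes in grey, member probes coloured (filled where called) and dashed lines at the fold threshold of 0.585. In D3MO the uncalled probes of ttnb and desma lie at log2FC of 0.59 and 0.64 beside called probes of the same genes but with larger SE, of 0.19 and 0.13.

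Precision and signal differed among the member probes. The median SE of the 8 probes was 0.094 in D1D2MO and 0.104 in D3MO, a little over the medians of all probes. The mean log2 intensity over the arrays, which is listed for all members, spanned 7.10 for a desma probe to 13.89 for a ttnb probe, where the listed probes spanned 6.68 to 15.67. Intensities of different probes depend on the probe as well as on the transcript, so they do not rank the genes. The dimmest member, desma probe A_15_P170646, had an SE of 0.094 in D3MO and gave the highest log2FC of the 3 desma probes.

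The other genes of the sarcomere scaffold, its assembly and its filaments were followed through lists. A probe of these lists has a symbol mostly because it or a probe of its accession passed a threshold in the study, so the counts share the selection of the members. Among 62 listed scaffold genes, which include genes of the Z-disc, M-band and thin filament ends and myosin binding proteins, 9 had a symbol, on 10 probes. Of these 0 rose and 0 fell in D1D2MO, where 4 genes had an unadjusted limma p under 0.05. Such a p was found for 6 of the 9 genes in D3MO and for 6 between the knockdowns. In D3MO only myoz1b, which encodes a Z-disc protein that binds calcineurin, rose, with a log2FC of 0.70 at 1 of its probes (SE 0.089). The same probe was at 0.58 in D1D2MO (SE 0.080), which passed the adjusted p but not the fold threshold. Between the knockdowns it was at 0.13 (SE 0.089), with no call. The other myoz1b probe was lower, at 0.29 in D1D2MO (SE 0.087) and 0.14 in D3MO (SE 0.096). Between the knockdowns that probe was at -0.15 (SE 0.096), and it was called in none of the contrasts. In the direct contrast pdlim7, a PDZ and LIM domain protein of the Z-disc, was higher in D3MO by 0.66 (SE 0.13), and klhl41b, a kelch protein of skeletal muscle, was lower, with a log2FC of -0.69 (SE 0.13). The scaffold gene trim55a was at 0.53 there (SE 0.097) and at 0.54 in D3MO (SE 0.097). Both values passed the adjusted p but not the fold threshold. In D1D2MO trim55a was at 0.017 (SE 0.087). Against the controls pdlim7 was at 0.69 in D3MO (SE 0.13) and missed the adjusted threshold, at an adjusted p of 0.0508 from limma. In D1D2MO klhl41b was at 0.58 (SE 0.12) and just missed both thresholds, at an adjusted p of 0.0503 from limma. There capzb, of the same list, was at 0.43 (SE 0.078), which passed the adjusted p but not the fold threshold. The median log2FC of the scaffold probes was 0.16 for D1D2MO, 0.37 for D3MO and 0.13 between the knockdowns, against 0.012, 0.65 and 0.64 for the members. Nothing is read from that distance, since the members were chosen on these contrasts.

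Chaperones that fold myosin and assemble the sarcomere were called in D3MO in 4 of 6 genes and in D1D2MO in 0. An unadjusted limma p under 0.05 was found for 4 of the genes in D3MO and 3 in D1D2MO. The myosin chaperone unc45b rose by a log2FC of 0.76 (SE 0.080) in D3MO, its partner hsp90aa1.1 by 0.79 (SE 0.083) at 1 of its probes and the methyltransferase smyd1a by 0.70 (SE 0.085) at 1 of its probes. In D1D2MO the corresponding values were -0.19, 0.030 and -0.13. The chaperonin subunit gene cct2 rose in D3MO by 0.60 (SE 0.075), and in D1D2MO it was at 0.40 (SE 0.067), which passed the adjusted p but not the fold threshold. The median over the chaperone probes was -0.048 for D1D2MO, 0.55 for D3MO and 0.68 between the knockdowns.

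Fast thick filament genes, the myosins that titin runs along, had medians of -0.0037 for D1D2MO, 0.67 for D3MO and 0.74 between the knockdowns over 14 probes of 7 genes. Many of these probes are of myhz1.1 and myhz1.2, so this pair weighs most in the medians. In D3MO 2 of the genes rose, the heavy chain myhz1.1 by 1.18 (SE 0.13) at 1 of its probes and the regulatory light chain mylpfa by 1.14 (SE 0.20). In D1D2MO only the heavy chain myhz2 rose, by 0.75 (SE 0.093). Between the knockdowns 3 genes were higher in D3MO and 1, myhz2, was lower, with a log2FC of -0.89 (SE 0.10). Fast thin filament genes, the actins, troponins and tropomyosins, had medians of 0.93, 0.68 and -0.22 over 22 probes of 9 genes. Many of these probes are of the actins acta1a and acta1b, so this pair weighs most in the medians. Between the knockdowns 9 of the 22 probes were positive. Troponins went both ways there, with tnnc2 at -0.63 and tnnt3b at 0.66 at 1 of its probes, the latter with no call. In D1D2MO 6 of them rose and in D3MO 4, and 3 genes were lower in D3MO than in D1D2MO. The skeletal actin acta1a was at 1.82 in D1D2MO and -1.58 in the direct contrast at the probe with its smallest p. Among the members, ttna had a log2FC in D1D2MO above that in D3MO, though a difference was not shown. The other 7 probes had the higher value in D3MO.

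**Figure D4:**
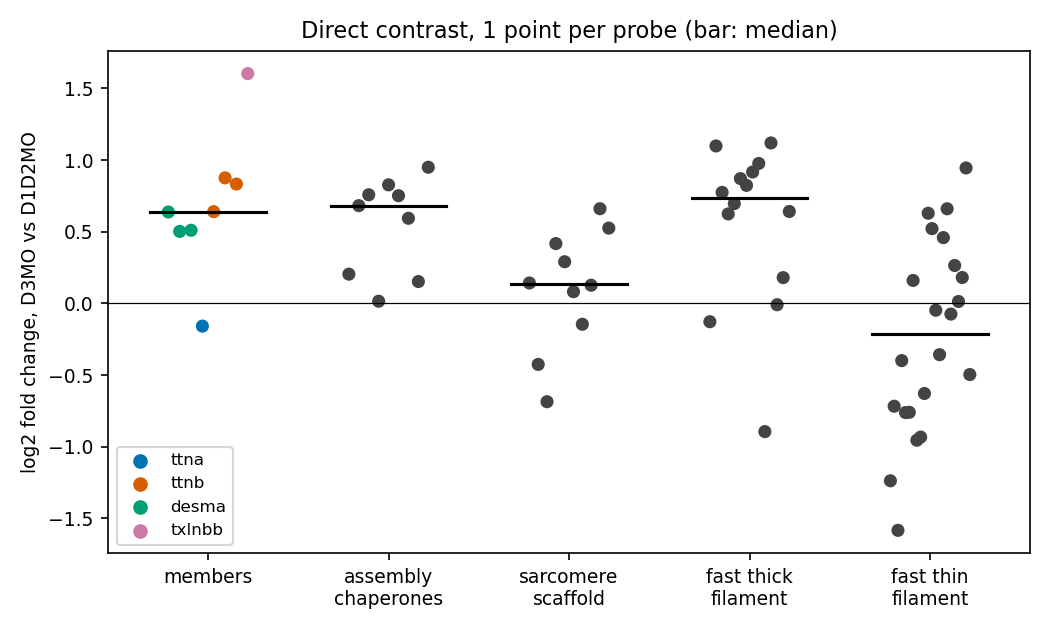
The log2FC of D3MO against D1D2MO, 1 point per probe, for the members (coloured by gene) and for the probes of 4 muscle gene lists (dark), with a bar at each median. Member medians (0.64), chaperones (0.68) and fast thick filament (0.74) lie above 0, the sarcomere scaffold (0.13) lies nearer to it and the fast thin filament (-0.22) below it. Single fast thick filament probes span -0.89 to 1.12 and single fast thin filament probes -1.58 to 0.95.

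Genes that link desmin filaments to the membrane and nucleus could scarcely be followed. Of 14 listed genes only lama2, a laminin of the muscle basement membrane, had a symbol, and it was at 0.15 in D1D2MO and 0.33 in D3MO, with no call. Of 3 other taxilin symbols listed, 0 had a named probe.

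Markers of other cell types moved in the same contrasts, and their part in the values of the members was not tested. Of 4 named liver markers of 9 listed, 2 fell in D1D2MO and 2 in D3MO, with fabp10a, the liver fatty acid binding protein, at -0.94 and -1.38, and the median over 7 probes was -0.72 and -0.56. The 1 named gut marker, the villin-like gene vil1l, was at -0.51 in D1D2MO and fell in D3MO, with a log2FC of -0.95. Smooth muscle also contains desmin, and both named smooth muscle markers fell in D3MO, acta2 with -1.21 (SE 0.080) and myh11a with -0.71 (SE 0.086), while 2 of 3 desma probes rose there. In D1D2MO acta2 fell too, with -0.85 (SE 0.072), and myh11a was at -0.37 (SE 0.078) with no call, where no desma probe was called. The desmin gene on the smooth muscle list was desmb and not desma, and desmb had no named probe. Which cells gave the desma signal was not tested. Heart muscle holds titin and desmin as well, and all 3 named heart markers of 9 listed rose in D3MO, the cardiac light chains cmlc1 by 0.69 (SE 0.078) and myl7 by 0.63 (SE 0.097) and the actin actc1a by 1.26 (SE 0.13) at 1 of its 3 probes, with the others at 0.49 and 0.56. In D1D2MO only actc1a of these rose, at all 3 probes, with log2FC of 0.98, 2.40 and 0.98. The median over the 5 heart marker probes was 0.98 in D1D2MO, 0.63 in D3MO and -0.42 between the knockdowns. The 3 actc1a probes among them were at -0.48, -1.14 and -0.42 between the knockdowns. The light chains cmlc1 and myl7 were at 0.13 and 0.27 in D1D2MO and at 0.56 and 0.36 between the knockdowns, with no call. Between the knockdowns cmlc1 passed the adjusted p but not the fold threshold, and myl7 passed neither. Of 5 named slow muscle markers 1 rose in D3MO, the slow myosin smyhc3 by 0.61, and 0 in D1D2MO. In each of these contrasts 2 of the slow markers had an unadjusted limma p under 0.05. Embryonic globins rose in D3MO in 3 of 3 named genes, with a median over 6 probes of 1.07, against 0.60 in D1D2MO where 1 was called. Skin keratins had a median of 0.63 in D1D2MO, where 2 of 6 named genes rose, and 0.092 in D3MO, where 0 rose. An unadjusted limma p under 0.05 was found for 4 of these genes in D1D2MO and 1 in D3MO. The swim bladder gene anxa5b was at -0.17 and -0.39 with no call, and 0 of 9 listed pancreas markers had a symbol.

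The genes closest to each member were sought by the distance between their mean log2FC in D1D2MO and D3MO. The search was over the 740 named genes with the members left out. This is a likeness over 2 contrasts that share their control group. The nearest to ttna was pvalb2, a parvalbumin that buffers calcium in fast muscle, at 0.63 and 0.50 in these contrasts (distance 0.082). Nearest to ttnb was hsp90aa1.1, at -0.10 and 0.62 as a mean over its probes (distance 0.045). Close to desma were lgals1l1, a galectin-like gene, at 0.11 and 0.66 (distance 0.0039), and the cardiac light chain cmlc1, at 0.13 and 0.69 (distance 0.041). The distances given for ttna, ttnb and desma are near or under the SE of a log2FC, so which gene is nearest is not resolved. No gene lay as close to txlnbb, and the nearest was the cyclin gene ccng1, at 0.074 and 1.36 over 4 probes (distance 0.27), with the myosin light chain mylpfa at 0.020 and 1.14 (distance 0.35).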

How the data were processed

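Abdomen RNA of SCMO, D1D2MO and D3MO larvae was compared on 14 two-colour arrays from 4 biological replicates per group. The authors excluded spots below the local background limit on all arrays, used a normal-exponential background correction, applied loess within arrays and fitted limma (version not given in the sources used here). Contrasts of that fit are the deposited log2 fold changes. The deposited p-values are unadjusted, and shorter tables by the authors add adjusted p-values, the mean log2 intensity and 2 score columns (log odds and moderated t). The number of arrays limits the precision, and array values were not analysed here. The fit is not described in full, so the SE may stand for spread between arrays only and not between replicates.

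The Benjamini-Hochberg adjustment was repeated over 13270 probes per contrast and lay within 2.83e-05 of the deposited values, and 1 control line was left out. The SE was the log2 fold change over the t recovered from p at 6.93 total degrees of freedom. The shorter tables, of 149, 185 and 346 probes, hold exactly the probes with an unadjusted p under 0.05 and a log2 fold change over 0.585 in size, and they give the accessions. A further probe of the member genes outside them and outside the study's transcript list would have no symbol here.

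The members and gene lists were chosen with earlier results of these data known. All member probes are named in the text, list genes were taken by smallest p (up to 3 per list and contrast), and for likeness up to 3 nearest genes were sought, of which some are not reported here. Other genes were chosen after their values were seen. The steps were tested on simulated data. Alternatives were other FDR and fold thresholds, 1 adjustment over the 3 contrasts, median centring, averaging by accession, and other summaries over probes. Python 3.11.15, numpy 2.4.6, pandas 2.3.3, scipy 1.17.1 and matplotlib 3.10.9 were used.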

Additional observations from a re-analysis of the deposited data

How the results depend on the processing

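At an FDR of 0.01 the called member probes numbered 0 for D1D2MO, 1 for D3MO and 2 between the knockdowns, and 46, 25 and 116 of all probes were called. With a log2FC over 1 in size the members called were 0, 1 and 1, and all probes called were 20, 34 and 44. Without a fold threshold 408, 245 and 739 of all probes were called, and 1, 6 and 5 members. Averaging probes of 1 accession left 5 member accessions, of which 3 were called in D3MO, and 95 of all features were called there. In that setting the ttnb accession ENSDART00000002299 was no longer called in D3MO (adjusted p = 0.121 from the mean limma t), where 1 of its probes had been. An FDR of 0.1, 1 adjustment over the 3 contrasts and centring on the median of all probes left each count within 1.5 times. Of the alternatives for the log2FC of single genes, 30 kept direction and size within the SE. A further 18 were fixed, since ttna and txlnbb have 1 named probe each. Among the 30 are those with median centring, which shifts a value by at most 0.011, so their outcome was fixed in advance too.

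No paired analysis was possible because the labels number no replicates on the arrays and the tables used hold contrasts over all arrays. For the same reason no replicate was left out in turn. The fold changes of 1.5 to 1.7 that most members had in D3MO lie close to the fold threshold. Each pairing of groups used both dye orientations in equal number, and effects of single arrays or replicates on the members were not tested.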
